A study of Mus musculus with 4 samples.

Results

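The ephrins and their Eph receptors were examined in subcutaneous tumors of the LLC line, a Lewis lung carcinoma of the mouse. The rule was a list of names: 10 genes of the deposited table, namely the ligands Efna1, Efna5, Efnb1 and Efnb2 and the receptors Epha2, Epha3, Epha4, Ephb2, Ephb3 and Ephb4, out of 47729 genes in all. All 10 were found by symbol, each with a single identifier. The other 12 ephrin and Eph genes of the mouse were read beside them. RNA came from tumors of wild type LLC cells (LLC) and from tumors of LLC cells transfected with pEFIN plasmids that encode murine chemerin (1-157), a form that needs no processing to be bioactive (LLC-Chem). Cells were grafted under the skin of the back in C57BL/6 mice, the strain the line comes from, and tumors were taken on day 5. The mice were young adults, by the age range stated for mice of the study in general. The labels call the LLC cells wild type, while the study also describes cells that carry the empty vector. Each group had 2 pools of 3 tumors. The study collected individual clones after selection, so a difference between clones and an effect of chemerin cannot be told apart in these 4 libraries.

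Ephrins are ligands held at the cell surface, and Eph receptors are receptor tyrosine kinases on the cells they touch. A-class ephrins are anchored by a lipid and bind mainly EphA receptors, while B-class ephrins cross the membrane and bind mainly EphB receptors. Signals run both ways, into the receptor cell and into the ligand cell, and they commonly drive cells apart or set boundaries between them. In vessels, ephrin-B2 marks arterial and EphB4 venous endothelium, and the contact between them is needed for vessel remodelling. In tumors EphA2 is often abundant on carcinoma cells and on the vessels that feed them.

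Values are RPM, that is, reads of a gene scaled to a fixed total of reads per library. The libraries held 28470000 to 33990000 reads by the spacing of the RPM values, so that the limit of detection, set at 3 reads, was 0.0883 to 0.105 RPM (counting error only). The transfected gene differed little between the groups and was not called. Rarres2, which encodes chemerin, measured 102.2 and 98.2 RPM in the LLC pools, against 105.9 and 105.8 RPM in LLC-Chem (log2 change 0.08, limma adjusted p = 0.541). Both LLC-Chem pools lay above both LLC pools, but by too little for this gene to check the labels. The epithelial markers Krt8 and Krt18 were abundant, but Epcam lay between 0 and 0.200 RPM and Cdh1 between 0.450 and 1.40 RPM.

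Among the members, Efna5 and Epha3 rose and Epha2, Efnb1 and Ephb2 fell in LLC-Chem tumors, while Efnb2 and Ephb4 stood at 100.6% and 110.1% of their LLC means. Differences were tested with limma on log2(RPM + 0.5) in the 13694 genes whose mean over the pools reached 1 RPM, two-sided, and called at an adjusted p under 0.05 (Benjamini-Hochberg over all genes tested). The added 0.5 RPM makes the change of weak genes look smaller than it is. SE stands for standard error, and every log2 change is LLC-Chem over LLC. Of the 10 members 9 were tested, and Epha4 was below the limit. The 2 members called higher are 22.2% of those tested, beside 9.54% of all genes tested, and the 3 called lower are 33.3%, beside 13.5%. The count of 3 lower includes Efnb1, whose call was lost in most other settings, and was 2 with TMM scaling, with the replicate block and with the quasi-likelihood test of edgeR. These shares rest on 9 genes named with earlier results known and were not tested. The median log2 change was 0.01 over the 9 members and -0.04 over all genes tested. In 8 of the 9 the pools of the groups did not overlap, beside 72.5% of all genes tested. When any pool was left out, limma called 0 of these 5 members (adjusted p = 0.0651 to 0.30), and the most it called among all genes in such a fit was 4 higher and 0 lower. At an unadjusted p under 0.05, those fits had 2 to 3 members higher and 2 to 4 lower. With 2 pools against 2, an exact permutation test of a single gene cannot go below p = 0.33.

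**Figure D1:**
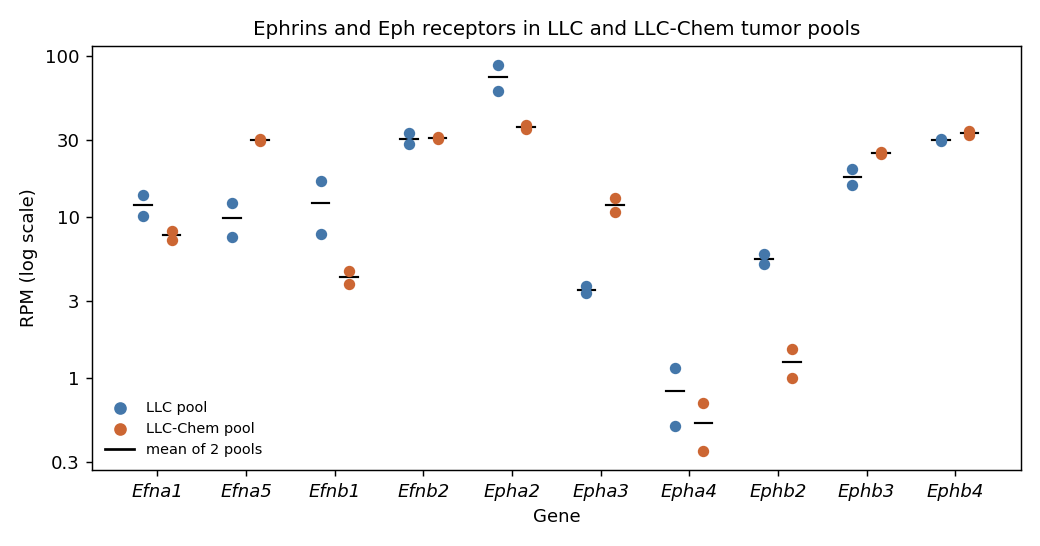
RPM of the 10 members (log scale) in each of the 2 LLC pools (blue) and 2 LLC-Chem pools (orange), with a bar at the mean of each group. Efna5 and Epha3 stand higher and Epha2, Efnb1 and Ephb2 lower in both LLC-Chem pools, and the pools of Efnb2 and of Epha4 overlap.

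The promoter windows of these 5 called genes are shown so that those that moved together can be read side by side. They are RefSeq windows of 250 bases before to 50 bases after the start site on GRCm38.p6, printed in the direction of transcription. Capitals mark the core of the hypoxia response element, ACGTG or GCGTG on either strand, with overlapping matches counted separately.
Efna5: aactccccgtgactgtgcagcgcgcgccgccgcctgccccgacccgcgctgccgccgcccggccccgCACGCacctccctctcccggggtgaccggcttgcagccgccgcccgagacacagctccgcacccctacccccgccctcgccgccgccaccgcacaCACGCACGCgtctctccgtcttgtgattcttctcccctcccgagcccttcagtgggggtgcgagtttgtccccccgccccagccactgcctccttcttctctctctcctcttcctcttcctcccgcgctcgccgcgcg
Epha3: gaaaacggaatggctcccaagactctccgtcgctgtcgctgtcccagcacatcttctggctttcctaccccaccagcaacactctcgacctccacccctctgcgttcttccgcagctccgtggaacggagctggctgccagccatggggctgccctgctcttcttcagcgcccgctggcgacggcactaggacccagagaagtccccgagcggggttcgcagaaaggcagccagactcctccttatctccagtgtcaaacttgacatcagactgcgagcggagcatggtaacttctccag
Epha2: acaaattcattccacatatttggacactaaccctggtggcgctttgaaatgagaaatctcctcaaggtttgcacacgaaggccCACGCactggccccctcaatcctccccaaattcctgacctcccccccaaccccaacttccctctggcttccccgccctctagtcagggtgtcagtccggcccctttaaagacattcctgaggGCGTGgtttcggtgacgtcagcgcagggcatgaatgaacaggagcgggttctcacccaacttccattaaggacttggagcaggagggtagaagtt
Efnb1: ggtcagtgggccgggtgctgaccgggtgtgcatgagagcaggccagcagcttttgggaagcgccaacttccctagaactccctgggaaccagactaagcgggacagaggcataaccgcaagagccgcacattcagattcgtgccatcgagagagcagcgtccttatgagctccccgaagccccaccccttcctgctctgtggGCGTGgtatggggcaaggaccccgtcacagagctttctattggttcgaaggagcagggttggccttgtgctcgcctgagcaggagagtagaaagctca
Ephb2: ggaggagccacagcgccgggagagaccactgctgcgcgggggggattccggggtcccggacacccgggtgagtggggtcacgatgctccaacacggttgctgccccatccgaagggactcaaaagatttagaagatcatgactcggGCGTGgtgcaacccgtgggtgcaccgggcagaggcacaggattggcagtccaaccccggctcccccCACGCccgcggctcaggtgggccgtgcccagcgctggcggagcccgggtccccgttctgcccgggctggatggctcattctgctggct
The windows lie at chr17:62881268-62881567 (minus strand) for Efna5, chr16:63864126-63864425 (minus strand) for Epha3, chr4:141300971-141301270 (plus strand) for Epha2, chrX:99135811-99136110 (plus strand) for Efnb1 and chr4:136835963-136836262 (minus strand) for Ephb2. The window of Efna5 held 3 matches and that of Epha3 held 0, so the risen members did not share the core. Epha2 and Ephb2, which fell, had 2 matches each, and Efnb1, which also fell, had 1. Members without a call had matches too. Ephb3 had 2, Epha4 had 1 and 1 window of Efna1 had 1, while Efnb2 and Ephb4 had 0. Of the 11 windows listed for the 10 members, 7 (63.6%) had at least 1 match, beside 43.8% of all 32851 windows. GTGGGAA, the core bound by RBPJ, the DNA-binding partner of Notch, was in 0 of the 11 windows and in 6.38% of all windows. A match is only a run of letters, and no binding was measured.

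Of the A-class ligands among the members, 1 was called higher and the other was not called. Efna5 (chromosome 17, 62604184 to 62881317, minus strand), which encodes ephrin-A5, a ligand of EphA3 and several other EphA receptors, measured 7.55 and 12.2 RPM in the LLC pools, against 29.9 and 30.6 RPM in LLC-Chem. Both LLC-Chem pools lay far above the LLC pools and close to each other. On average it went from 9.87 ± 3.29 RPM to 30.3 ± 0.530 RPM (SD, n = 2). The log2 change was 1.61 with an SE of 0.24 (limma adjusted p = 0.0155). It ran from 1.28 to 1.93 when each pool was left out in turn. Efna1 (chromosome 3, 89271733 to 89281142, minus strand) encodes ephrin-A1, the main ligand of EphA2 and a gene induced by inflammatory cytokines in endothelium. It stood at 13.7 and 10.2 RPM in LLC and at 8.25 and 7.20 RPM in LLC-Chem. The groups did not overlap, but the log2 change of -0.59 did not pass (SE 0.20, limma adjusted p = 0.0878).

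Of the EphA receptors, 1 rose and 1 fell. Epha3 (chromosome 16, 63543534 to 63864175, minus strand) encodes a receptor for ephrin-A5 that is known from axon guidance and from mesenchymal cells. The gene measured 3.70 and 3.35 RPM in the LLC pools, against 13.1 and 10.8 RPM in LLC-Chem. The reads behind it were recovered from the RPM, to within 1 read if the inferred scaling of the RPM holds. Those reads ran from 94 in LLC pool 2 to 444 in LLC-Chem pool 1. Its mean rose from 3.52 ± 0.247 RPM to 12.0 ± 1.59 RPM (SD, n = 2), and its log2 change of 1.63 (SE 0.19, limma adjusted p = 0.0125) was close to that of Efna5. Epha2 (chromosome 4, 141301240 to 141329384, plus strand) was the member with the most RPM in every pool. The gene measured 88.2 and 60.6 RPM in the LLC pools, against 37.4 and 35.4 RPM in LLC-Chem, so that the LLC pools lay apart from each other and both above the LLC-Chem pools. The LLC-Chem mean was 48.9% of the LLC mean (log2 change -1.0, SE 0.19, limma adjusted p = 0.0251). Epha4, a receptor that binds ephrins of both classes, was barely expressed, at 0.50 and 1.15 RPM in the LLC pools, against 0.70 and 0.35 RPM in LLC-Chem. These overlapping values rest on 11 to 32 reads a pool, and no difference was detectable at this depth.

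Of the B-class ligands, 1 was called lower and the other lay at the same mean in both groups. Efnb1 (X chromosome, 99136130 to 99148991, plus strand) encodes ephrin-B1, a ligand of EphB2 that is known for setting tissue boundaries. The gene measured 7.85 and 16.7 RPM in the LLC pools, against 4.65 and 3.85 RPM in LLC-Chem. Both LLC-Chem pools were below both LLC pools, but the LLC pools themselves differed by more than the lower of them differed from the LLC-Chem pools. The log2 change was -1.34 (SE 0.36, limma adjusted p = 0.0493), and it was -0.82 without LLC pool 2 and -1.86 without LLC pool 1 (limma adjusted p = 0.111 and 0.0794). The call was lost in 10 of the other 14 settings, with TMM scaling among them (limma adjusted p = 0.0587). Efnb2 (chromosome 8, 8617434 to 8661242, minus strand), the arterial ligand, measured 28.4 and 33.3 RPM in the LLC pools, against 30.8 and 31.3 RPM in LLC-Chem. The LLC-Chem pools lay between the LLC pools. The log2 change was 0.01 with a 95% interval from -0.31 to 0.33 (limma adjusted p = 0.946), so a fall to less than 0.809 times or a rise to more than 1.26 times the LLC level is outside that interval.

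The EphB receptors differed among themselves. Ephb2 (chromosome 4, 136647539 to 136835988, minus strand), a receptor for B-class ephrins that also binds ephrin-A5, had the lowest log2 change of the members when all pools were used. The gene measured 5.85 and 5.10 RPM in the LLC pools, against 1.5 and 1.0 RPM in LLC-Chem. The LLC-Chem mean was 22.8% of the LLC mean, and the log2 change was -1.78 (SE 0.24, limma adjusted p = 0.0141). Ephb3 (chromosome 16, 21204755 to 21223305, plus strand), which acts with EphB2 in positioning epithelial cells of the gut, was at 15.8 and 19.9 RPM in the LLC pools, against 25.5 and 24.8 RPM in LLC-Chem. The groups did not overlap, but the log2 change of 0.49 (SE 0.16, limma adjusted p = 0.0724) did not pass. On recovered reads, edgeR's likelihood ratio test called it (adjusted p = 0.0449), as did DESeq2 (adjusted p = 0.0499). Ephb4 (chromosome 5, 137350109 to 137378669, plus strand), the venous receptor of ephrin-B2, measured 30.7 and 29.9 RPM in the LLC pools, against 34.2 and 32.5 RPM in LLC-Chem. It was slightly above in both LLC-Chem pools, with a log2 change of 0.14 and a 95% interval from -0.14 to 0.41 (limma adjusted p = 0.391).

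**Figure D2:**
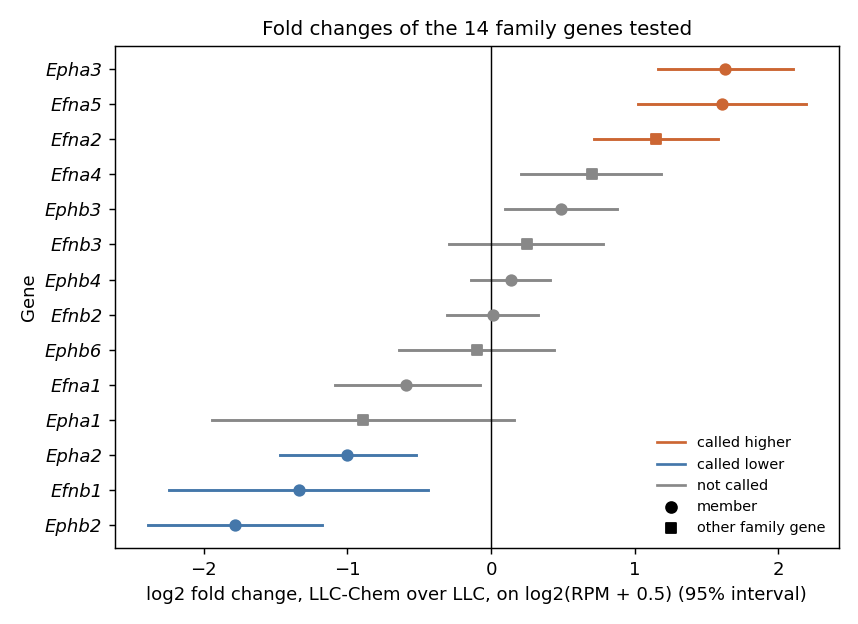
log2 change of LLC-Chem over LLC with its 95% interval from limma for the 14 ephrin and Eph genes tested, 9 of them members (circles) and 5 other family genes (squares), with called genes in orange (higher) and blue (lower). Epha3, Efna5 and Efna2 stand at the top at 1.63, 1.61 and 1.15, and Ephb2 at the bottom at -1.78.

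Levels were compared between genes after division by exon length, as RPM per kb of exon in the GENCODE M21 annotation. The length merges the exons of all annotated transcripts of a gene, which may be longer than the transcripts in use. The order and the sums below depend on it. In LLC tumors the order of the members was Epha2 (15.9 RPM per kb), Ephb4 and Efna1 (both 6.53), Efnb2 (4.50), Efnb1 (3.55), Ephb3 (2.69), Efna5 (2.45), Ephb2 (0.434), Epha3 (0.405) and Epha4 (0.102). Neighbours whose pools overlapped were Ephb4 and Efna1, Efnb2 and Efnb1, Efnb1 and Ephb3, Ephb3 and Efna5, and Ephb2 and Epha3. In LLC-Chem tumors the order was Epha2 (7.79 RPM per kb), Efna5 (7.50), Ephb4 (7.19), Efnb2 (4.53), Efna1 (4.22), Ephb3 (3.79), Epha3 (1.38), Efnb1 (1.23), Ephb2 (0.0991) and Epha4 (0.0651). Here Epha2 and Efna5, Efnb2 and Efna1, Epha3 and Efnb1, and Ephb2 and Epha4 overlapped. Efna5 thus went from position 7 to 2 of the 10, and Efnb1 from 5 to 8.

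The make-up of each class, over all 22 family genes, is given as a description. The 5 A-class ephrins summed to 14.4 and 14.2 RPM per kb in the LLC pools and 21.7 and 22.3 in the LLC-Chem pools. Efna1 made up 51.9% and 39.3% of that sum in the LLC pools and 20.8% and 17.6% in the LLC-Chem pools, whereas Efna5 went from 13.0% and 21.3% to 34.2% and 34.1%. The leading A-class ligand per length was therefore Efna1 in both LLC pools and Efna5 in both LLC-Chem pools. The 9 EphA receptors went the other way in sum, from 17.3 ± 3.63 RPM per kb in LLC to 9.60 ± 0.561 in LLC-Chem (SD, n = 2). Epha2 held most of this sum in every pool, 91.5% ± 4.93 in LLC and 81.2% ± 1.52 in LLC-Chem (SD, n = 2), while the share of Epha3 went from 2.14% and 2.61% to 15.1% and 13.6%. The 3 B-class ephrins summed to 6.92 and 10.2 RPM per kb in LLC and 6.50 and 6.31 in LLC-Chem, with Efnb2 at 53.7% ± 8.79 and 70.8% ± 2.27 of the sum (SD, n = 2). The 5 EphB receptors summed to 10.3 and 10.8 RPM per kb in LLC and 12.2 and 11.6 in LLC-Chem, and Ephb4 held 62.0% ± 3.50 of the sum in LLC and 60.6% ± 0.0660 in LLC-Chem (SD, n = 2).

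**Figure D3:**
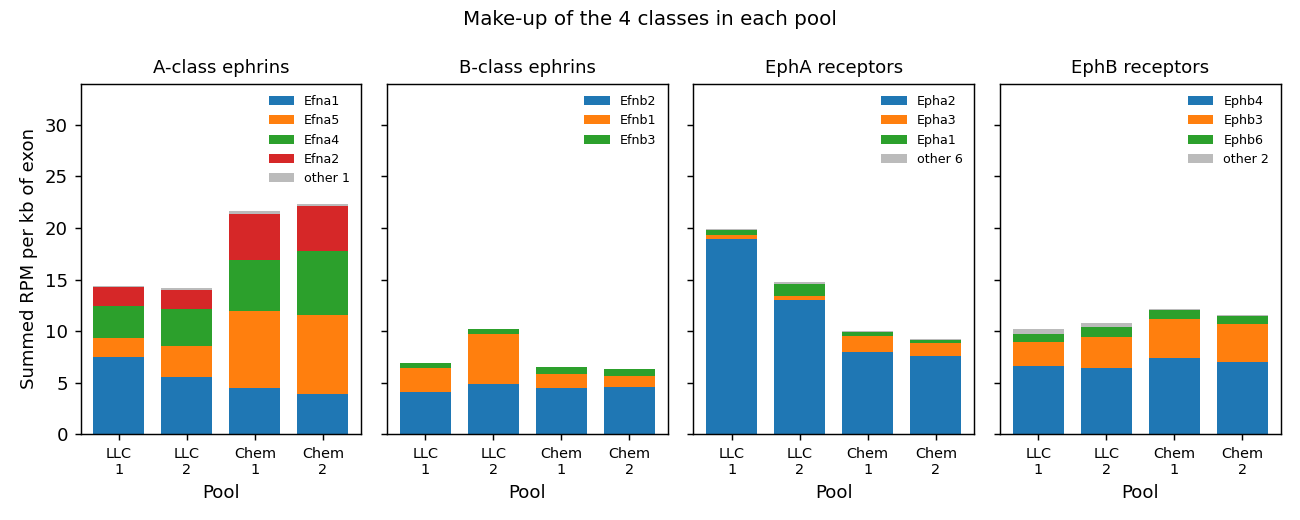
Summed RPM per kb of exon (linear axis from 0) of the A-class ephrins, B-class ephrins, EphA receptors and EphB receptors in each of the 4 pools, stacked by gene, with genes under a mean of 0.5 RPM per kb in grey. Efna5 takes 34.2% and 34.1% of the A-class ephrins in the LLC-Chem pools against 13.0% and 21.3% in the LLC pools, and the EphA sum drops with Epha2.

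Among the other 12 family genes, 5 were tested, of which 1 was called higher (background 9.54%) and 0 lower by limma (0 also at an unadjusted p under 0.05, and 0 with either test of edgeR and with DESeq2). Efna2, an A-class ligand like Efna5, rose from 3.85 and 4.0 RPM in LLC to 9.39 and 9.24 RPM in LLC-Chem (log2 change 1.15, SE 0.17, limma adjusted p = 0.0158). Efna4 measured 5.00 and 5.70 RPM in the LLC pools, against 8.05 and 9.99 RPM in LLC-Chem and did not pass (limma adjusted p = 0.0533). The ranges of Efna4 do not overlap, but 10.5% of its exon bases lie under exons of another gene, where reads can be lost or shared. Efnb3 (1.6 and 1.7 RPM in LLC, 2.10 and 2.00 in LLC-Chem), Ephb6 (2.75 and 3.45, 2.95 and 2.75) and Epha1 (1.75 and 4.70, 1.45 and 1.25) were not called either (limma adjusted p = 0.418, 0.753 and 0.168). The remaining genes, Efna3, Epha5, Epha6, Epha7, Epha8, Epha10 and Ephb1, stayed between 0 and 0.750 RPM in every pool. Sharing of reads between relatives was checked through words of 50 bases. In each member at most 0.221% of the words occurred in transcripts of another gene, and the only member with exon bases under another gene was Ephb4 (0.711%).

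The genes that act next to ephrins and Eph receptors were read from a list of 32 adapters, exchange factors, kinases, phosphatases, PDZ proteins and a protease. Of the 31 tested, 1 was called higher (3.23%, beside 9.54%) and 5 lower (16.1%, beside 13.5%), and their median log2 change was -0.10. Pak1, a kinase driven by Rac and Cdc42, fell from 27.8 and 28.6 RPM in LLC to 15.0 and 12.2 RPM in LLC-Chem (log2 change -1.03, limma adjusted p = 0.0156). Tiam1 and Kalrn, exchange factors that activate Rac and work downstream of EphB receptors, were called lower with log2 changes of -0.97 and -0.99 (limma adjusted p = 0.0393 and 0.0484). Fyn, a kinase of the Src family, and the adapter Grb2 fell by less, with log2 changes of -0.53 and -0.43 (limma adjusted p = 0.0325 and 0.0472). Pick1, a PDZ protein that can bind the tail of B-class ephrins, rose from 14.4 and 14.8 RPM in LLC to 24.5 and 31.7 RPM in LLC-Chem (log2 change 0.91, limma adjusted p = 0.0229). Arhgef15, an exchange factor of vascular cells that binds EphA4, was at 9.44 and 5.55 RPM in the LLC pools, against 3.65 and 2.40 RPM in LLC-Chem and did not pass (limma adjusted p = 0.0522). Ngef, which encodes ephexin, and Adam10, which encodes a protease that cleaves ephrins, had log2 changes of -0.10 and 0.31 (limma adjusted p = 0.843 and 0.0651). The count of 5 lower is not firm. It was 3 with TMM scaling.

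Efnb2 and Ephb4 were set beside vessel markers, since both are known from endothelium. Of the 12 endothelial markers all 12 had LLC-Chem pools below both LLC pools, where 72.5% of all genes tested did not overlap in either direction, and 10 were called lower (83.3%, beside 13.5%). Their summed level went from between 252.8 and 325.2 RPM in LLC to between 56.6 and 93.1 RPM in LLC-Chem, or 25.9%, while Efnb2 stood at 100.6% and Ephb4 at 110.1% of their LLC means. Pecam1, Cdh5 and Kdr, which encode surface proteins of endothelium, had log2 changes of -2.08, -2.46 and -2.10 (limma adjusted p = 0.0204, 0.0141 and 0.00930). In bulk tumors, fewer cells of a type and less RNA per cell cannot be told apart, and which cells carried Efnb2 or Ephb4 was not measured. The difference between these changes and those of the members was not tested.

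The tested arterial markers lay lower in LLC-Chem, unlike Efnb2, whose pools overlapped, and the venous markers went in different directions. Of 7 arterial markers 6 were tested, and 2 were called lower by limma and by the quasi-likelihood test of edgeR (33.3%, beside 13.5% of all genes tested by limma). All 6 lay below LLC in both LLC-Chem pools, where 72.5% of all genes tested did not overlap in either direction. The likelihood ratio test of edgeR and DESeq2 each called 5 of these 6 markers lower. Gja4 and Gja5, which encode arterial connexins, had log2 changes of -1.71 and -1.05 (limma adjusted p = 0.0183 and 0.0345), and the Notch ligand Dll4 and the Notch target Hey1 had -2.0 and -1.12 without passing (limma adjusted p = 0.0521 and 0.0622). Unc5b, a netrin receptor with by far the most RPM of the list (98.8 RPM on average in LLC), had a log2 change of -0.27 (limma adjusted p = 0.162), and the arterial sum in LLC-Chem was 74.5% of that in LLC. Without Unc5b the arterial sum ran from 13.0 to 19.6 RPM in LLC and from 2.50 to 5.65 RPM in LLC-Chem, or 25% of LLC. Of the 4 venous markers, all tested, 1 was called higher and 2 lower, beside 9.54% and 13.5% of all genes tested. Nr2f2, which encodes the venous factor COUP-TFII and is also made in stroma, rose from 38.9 and 26.3 RPM in LLC to 55.1 and 60.1 RPM in LLC-Chem (log2 change 0.83, limma adjusted p = 0.0382). Aplnr, the apelin receptor, fell from 33.4 and 18.4 RPM in LLC to 5.85 and 4.25 RPM in LLC-Chem (log2 change -2.21, limma adjusted p = 0.0149). Flt4, which encodes a receptor for VEGF-C, was called lower as well (log2 change -1.72, limma adjusted p = 0.0382), and Nrp2, a neuropilin, was not called (log2 change 0.14, limma adjusted p = 0.426).

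**Figure D4:**
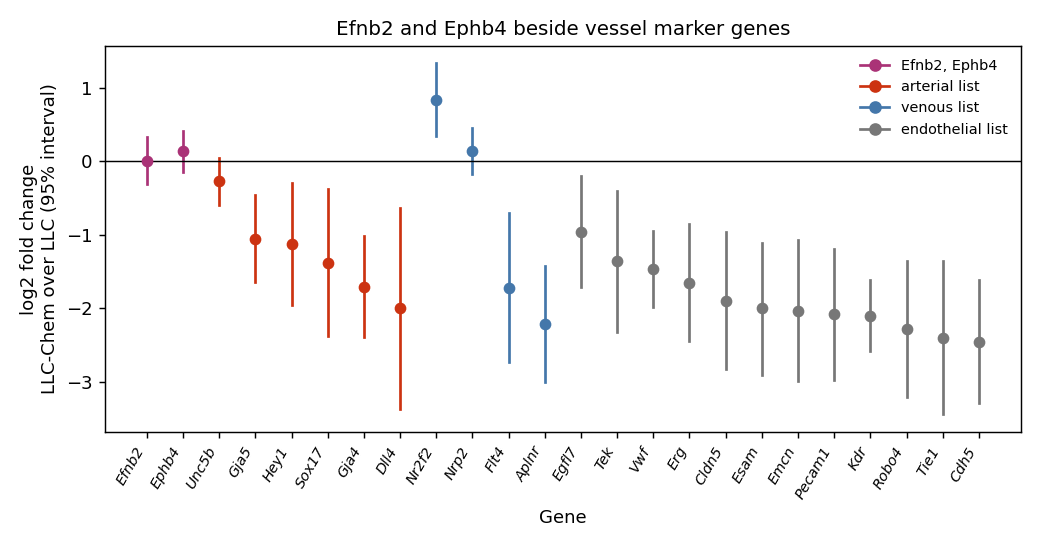
log2 change of LLC-Chem over LLC with its 95% interval from limma for Efnb2 and Ephb4 (purple) beside the tested markers of the arterial (red), venous (blue) and endothelial (grey) lists. Efnb2 and Ephb4 sit at 0.01 and 0.14, while the endothelial markers lie between -2.46 and -0.96.

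Markers of other cells moved with the groups too. The 6 mural markers summed to between 190.3 and 229.4 RPM in LLC and between 43.3 and 65.1 RPM in LLC-Chem. Of these, 5 were called lower (83.3%, beside 13.5% of all genes tested). The 8 leukocyte markers summed to between 1034.0 and 1394.8 RPM in LLC and between 389.5 and 722.3 RPM in LLC-Chem. Of the 6 tested, 4 were called lower (66.7%, beside 13.5%). The members that fell did so beside these lists, and the part of these cells in their fall was not tested. The 5 fibroblast markers were split, with 1 called higher and 2 lower. Pdgfra, a receptor of stromal cells, rose by limma (log2 change 0.72, limma adjusted p = 0.0450), and the matrix proteoglycan genes Dcn and Lum lay above LLC in both LLC-Chem pools without passing (log2 changes 0.80 and 1.0, limma adjusted p = 0.0753 and 0.0776). The quasi-likelihood test of edgeR called 0 fibroblast markers higher, while its likelihood ratio test and DESeq2 called 3. The collagen genes Col1a1 and Col1a2 fell, with log2 changes of -1.51 and -1.46 (limma adjusted p = 0.0334 and 0.0383). Efna5 and Epha3 rose, as did Pdgfra and, without passing, Dcn and Lum, whereas Col1a1 and Col1a2 fell. The part of stromal cells in the rise of Efna5 and Epha3 was not tested. The summed level of the list was between 6869.5 and 8559.2 RPM in LLC-Chem, on average 48.0% of that in LLC. The LLC pools differed from each other too, with the larger fibroblast sum, most of it Col1a1 and Col1a2, in LLC pool 2 (20338.8 against 11799.6 RPM) and the larger endothelial sum in LLC pool 1 (325.2 against 252.8 RPM). Efna5, Efnb1, Efnb2, Epha4 and Ephb3 were higher in LLC pool 2, and Efna1, Epha2, Epha3, Ephb2 and Ephb4 in LLC pool 1. The LLC-Chem pools differed as well. LLC-Chem pool 1 had the larger endothelial (93.1 against 56.6 RPM), leukocyte (722.3 against 389.5 RPM) and erythroid (115.6 against 3.55 RPM) sums. The nerve and glia sum (47.7 against 31.7 RPM) and the venous sum (280.2 against 255.1 RPM) were larger in LLC-Chem pool 2. The 4 nerve and glia markers, read because EphA3 and ephrin-A5 are known from neurons, summed to between 15.8 and 40.5 RPM in LLC and between 31.7 and 47.7 RPM in LLC-Chem, and limma called 0 of the 2 tested (0 also at an unadjusted p under 0.05 and with edgeR and DESeq2). The 4 adipocyte markers summed to 14.2 and to 39.7 RPM in the LLC-Chem pools, below and above both LLC pools. Of the 3 tested, 1 was called higher (33.3%, beside 9.54%). This was Cfd, at 15.1 and 4.10 RPM in the LLC-Chem pools, against 1.40 RPM in both LLC pools (limma adjusted p = 0.0466). Limma called 0 of the 2 epithelial, 1 keratinocyte and 3 erythroid markers that were tested. At an unadjusted p under 0.05, 1 epithelial, 1 keratinocyte and 0 erythroid markers were lower, and of these the epithelial gene alone was called by edgeR's likelihood ratio test and DESeq2. The 4 muscle markers, none of which reached the limit for testing, summed to at most 1.35 RPM, with Ckm and Myh4 at 0 in all pools.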

How the data were processed

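RNA was measured in 4 pools of LLC tumors. Paired-end reads were aligned by the authors with STAR (GRCm38.p4) and assigned to Ensembl genes with HTSeq, and RPM were deposited, 1 column per pool. Tool versions and strand use in counting are not given in the sources used here. All nonzero RPM (100%) were whole multiples of a step, to within 2e-04 RPM, and steps of every pool summed to nearly the same total, so reads were recovered under an inferred scaling to 20000000 reads. Library totals came from a fit to the spacing of values.

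RPM are not counts, so the test was limma 3.58.1 in R 4.3.3 (eBayes with trend) on log2(RPM + 0.5) for genes whose mean reached 1 RPM. edgeR 4.0.16 and DESeq2 1.42.0 on recovered reads, other pseudocounts, scalings and filters, a replicate block and leaving out each pool were alternatives. On data simulated with each gene's own estimated dispersion (13520 genes), limma recovered 82 of 85 genes changed by 2 and 70 of 107 changed by 1 on the log2 scale, but 25 of its 177 calls (14.1%) were false, above the nominal rate. The simulation was then repeated with dispersions from the trend over expression (13517 genes), a choice made after the first result was seen, and gave 86 of 88, 70 of 107 and 3 false among 159 calls (1.89%). Which simulation is nearer to these libraries was not tested, so calls near the threshold may hold more false ones than the adjusted p states. P-values measure the spread between these pools.

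The members and lists were chosen with earlier results of these data known. All members, the other family genes, the 4 called partners of largest change in each direction, Arhgef15, Ngef, Adam10, some vessel markers and Rarres2 were to be named, and Grb2, Gja4, Unc5b, Flt4, Nrp2, Cfd, the 5 fibroblast markers, Krt8, Krt18, Epcam, Cdh1, Ckm and Myh4 were named after their values were seen. Coordinates and exon lengths come from GENCODE M21 (GRCm38), where 22 of the 22 family genes were found. RefSeq promoter windows were found for 10 of the 10 members. Figures were made with Python 3.11.15 and matplotlib 3.10.9.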

Additional observations from a re-analysis of the deposited data

How the results depend on the processing

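Of the members called, Efna5, Epha3 and Epha2 kept their call in 13 of 14 settings other than leaving out a pool, Ephb2 in 12 of 13 and Efnb1 in 4 of 14. Efna1, Efnb2 and Ephb4 stayed uncalled in all 14, and Ephb3 passed in 2. With all genes above 0 tested, limma called 1 gene higher and 0 lower (3394 and 4003 at an unadjusted p under 0.05), and 0 members, 0 other family genes and 0 partners in either direction (unadjusted, 3 members higher and 4 lower, 2 other family genes higher and 2 lower, and 3 partners higher and 9 lower). With a mean of at least 5 RPM, 1 member was lower, since Ephb2 was then not tested and Efnb1 lost its call (adjusted p = 0.0533). The likelihood ratio test of edgeR called 2000 genes higher, against 1306 in limma.

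The groups share replicate numbers, and same-numbered pools deviated with a correlation of -0.1405 across genes. That value rests on a single difference between pools in each group, so it cannot show whether same-numbered pools share more than a number. With the replicate number as a block, limma called 549 genes higher and 1064 lower and 2 partners lower, and edgeR's quasi-likelihood test with the block 510, 740 and 1. Pairing the pools crosswise, a fit chosen after seeing the data, gave 1579 and 2320 genes. The block left 2 members higher and 2 lower.

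Other family genes called higher, 1 in limma, were 2 with TMM scaling, the likelihood ratio test and DESeq2. Partners called higher, 1 in limma, were 2 with TMM scaling, median-of-ratios scaling and the likelihood ratio test and 3 with DESeq2. Partners called lower, 5 in limma, were 3 with either scaling and 2 without trend.

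Leaving out each pool, where a lone pool is assumed to vary like the other group, gave 0 to 4 genes higher and 0 lower by limma (unadjusted, 973 to 2379 higher and 1617 to 2807 lower), and 0 to 0 members, other family genes and partners in each direction (unadjusted, 2 to 3 members higher and 2 to 4 lower). The log2 change of Efnb2 ran from -0.10 without LLC pool 1, a change of sign, to 0.13. Depth limits Epha4 most among the members. Ephb2 is weak too, with 50 and 32 recovered reads in the LLC-Chem pools. Its log2 change was -1.53 with a pseudocount of 1 RPM and -2.13 with DESeq2.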
